A study of Homo sapiens with 11 samples.

Results

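The CELF and MBNL genes encode 2 families of RNA-binding proteins that set the splicing of many of the same transcripts, and their 9 human members, CELF1 to CELF6 and MBNL1 to MBNL3, were followed here through 11 exon arrays. A member was represented by each probe set whose only listed symbol was that gene or its older name on the array, which was CUGBP1 for CELF1, CUGBP2 for CELF2, TNRC4 for CELF3, and BRUNOL4, BRUNOL5 and BRUNOL6 for CELF4, CELF5 and CELF6. This gave 218 probe sets of 1399022 on the array, and all 9 members were among the 14662 genes with a gene value. The genes were chosen by measured values, namely the gene values of the Tat-SF1 shRNA and control arrays, in which CELF6 had passed a test over all genes. Their values in that comparison are therefore a description. Any interval, adjusted p or call printed for a member there is part of the description and does not serve as a test. Tests were kept for the difference between the 2 Tat-SF1 shRNAs and for the difference between the 2 control constructs.

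Human Exon 1.0 ST arrays measured total RNA of T-REx-293 cells, a derivative of the embryonic kidney line HEK293 whose inserted constructs are switched on by tetracycline. Every group carried a GFP plasmid and received 2.5 µg/mL tetracycline for 72 h. The induced construct was shRNA A or shRNA B against Tat-SF1 (3 arrays each, 6 knockdown arrays in all), an shRNA against GFP (3 arrays) or an empty vector (2 arrays), the last pair of constructs forming 5 control arrays. Tat-SF1, the product of HTATSF1, acts in transcription elongation and associates with the U2 snRNP, and the design asked which transcripts and exons change when it is depleted. The labels call the replicates of a construct biological replicates, and do not say whether the cells of a construct were a pool or 1 clone.

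CELF proteins bind U- and G-rich elements in introns and in the ends of messages, where they direct exon choice, translation and decay. MBNL proteins bind through zinc fingers and often push the same exons the other way, so that the balance of the families changes as heart and skeletal muscle mature. In myotonic dystrophy, expanded repeats in RNA hold MBNL proteins in nuclear foci and CELF1 protein accumulates. CELF1, CELF2, MBNL1 and MBNL2 are made in many tissues, MBNL3 is best known from placenta and from muscle precursors, and CELF3 to CELF6 are best known from the nervous system.

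2 sequences are shown because results below turn on CELF6, whose values helped to choose these genes, and on CELF1, whose start lies against that of another gene with a like pattern. Each is the run of 250 bases before the first start listed by RefSeq for GRCh38.p14, on the minus strand, written 5′ to 3′ in the direction of the gene. Capitals mark 3 motifs, which were picked after the CELF6 sequence had been read. The first is CCAAT, which reads ATTGG on the other strand. The second is GGGCGG, which reads CCGCCC on the other strand. The third is the palindrome TGACGTCA. Both strands were searched, and none of the matches shown overlaps a match of another motif.
CELF6, chr15:72320158-72320407: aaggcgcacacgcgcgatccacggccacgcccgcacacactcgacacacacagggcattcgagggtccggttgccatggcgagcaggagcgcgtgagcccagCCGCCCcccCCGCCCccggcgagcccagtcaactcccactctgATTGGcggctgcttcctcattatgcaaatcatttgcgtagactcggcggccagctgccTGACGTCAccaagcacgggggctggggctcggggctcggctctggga
CELF1, chr11:47565540-47565789: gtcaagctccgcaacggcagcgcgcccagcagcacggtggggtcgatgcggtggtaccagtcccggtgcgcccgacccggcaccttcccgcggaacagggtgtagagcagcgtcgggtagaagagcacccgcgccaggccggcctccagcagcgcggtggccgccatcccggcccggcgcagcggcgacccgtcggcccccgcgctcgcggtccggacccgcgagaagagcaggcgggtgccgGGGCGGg
The CELF6 window holds 1 CCAAT, 2 GGGCGG and 1 TGACGTCA, and the CELF1 window holds 1 GGGCGG at its end nearest the start. Over 27305 windows of this length, 1 per gene, CCAAT was present in 33% of windows, GGGCGG in 42.3% and TGACGTCA in 1.77%. None of the windows of the other 8 members, taken in the same way, held CCAAT or TGACGTCA. The CELF1 window has 38 CpG and the CELF6 window 25 CpG, against a median of 11 CpG over all windows. Other members share these traits, as the CELF5 window has 38 CpG and the MBNL1 window 30 CpG. The windows of CELF2, CELF3, CELF4, MBNL2 and MBNL3 have between 3 and 11 CpG. GGGCGG occurs 4 times each in the CELF5 and MBNL1 windows and 1 time each in those of CELF2 and CELF3. A match is a description of the letters and not a bound site, and these arrays measure no binding.

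The families split by how far their probe sets stood above the background of the arrays. Dim probe sets crowd around the array median, which was 7.90 to 7.91 on the log2 scale on all 11 arrays, so this level served as a floor against which each probe set was read. Of the 210 member probe sets with an estimate on all arrays, 93 (44.3%) lay above the array median on every array, against 49.5% of the 347084 probe sets with 1 symbol in the table. CELF1, CELF2 and the MBNL genes supplied 87 of these 93, which is 77.7% of their 112 probe sets. CELF3, CELF4, CELF5 and CELF6 supplied 6, or 6.12% of their 98 probe sets. In bulk RNA, fewer cells with a transcript and less transcript per cell cannot be told apart.

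Among the widely made members, CELF1 reached furthest above the floor. Its brightest probe set lay 3.48 log2 units above the table median of 7.90, and 27 of its 29 probe sets with an estimate were above the array median on all 11 arrays. The brightest probe set lay 2.28 units above the table median for MBNL1, 1.81 for CELF2, 1.30 for MBNL3 and 1.19 for MBNL2. For the 4 members known from the nervous system the brightest probe set lay between 0.14 and 0.20 units above it. None of the 25 CELF3 probe sets was above the array median on every array, and CELF4, CELF5 and CELF6 had 2 such probe sets each. Brightness of single probe sets also depends on their sequence, so these distances say how far each gene could be read and do not rank the transcripts.

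**Figure D1:**
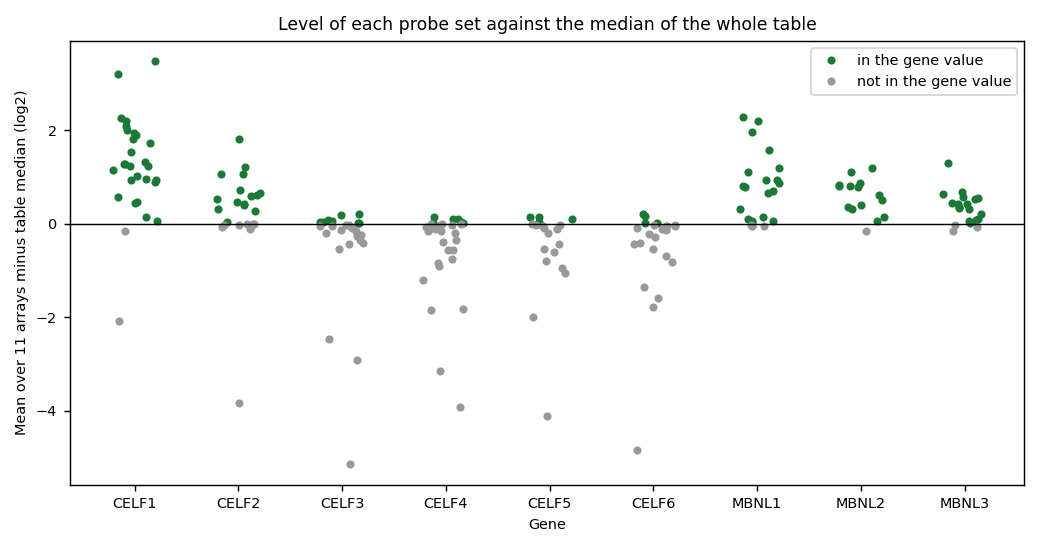
Mean log2 level over 11 arrays of each probe set with an estimate on all arrays, minus the table median of 7.90, for the 9 genes along the horizontal axis (points are spread sideways for sight). Green points entered the gene value and grey points did not; CELF1, CELF2 and the MBNL genes rise up to 3.48 units above the line, while CELF3 to CELF6 stay within 0.20 units of it or lie below.

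The gene value, used in all that follows, is the median log2 value of the probe sets of a gene whose mean was at or above the table median, with at least 4 such probe sets required. The number of member probe sets that entered was 115 of 210. They were 27 for CELF1, 15 for CELF2, 8 for CELF3, 6 for CELF4, 5 for CELF5, 4 for CELF6, 19 for MBNL1, 14 for MBNL2 and 17 for MBNL3. A gene value near 7.90 is thus made from the few probe sets that reached the floor.

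CELF6, an RNA-binding regulator best known from brain, was the member whose knockdown and control arrays lay apart. Its gene value was 8.03, 8.03 and 8.01 under shRNA A and 8.05, 8.05 and 8.02 under shRNA B. It was 7.98, 7.92 and 7.98 under the GFP shRNA and 7.95 and 7.95 under the empty vector. All 6 knockdown arrays lay above all 5 controls, with shRNA B above shRNA A on average and the GFP shRNA above the empty vector. The mean was 8.03 ± 0.017 (SD, n = 6) in knockdown arrays and 7.95 ± 0.025 (SD, n = 5) in controls, a difference of 0.078 (SE 0.014; 95% interval 0.047 to 0.11).

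This is a small difference between levels that both sit close to the floor. After subtracting the array median on the linear scale, CELF6 had 22.8 ± 3.19 units of signal in knockdown arrays (SD, n = 6) and 8.97 ± 4.59 units in controls (SD, n = 5). In the limma fit over all genes CELF6 had an adjusted p of 0.0484, and it was the 1 member of 9 that passed, while 33 of 14662 genes passed (0.225%), 6 of them as higher (0.0409%). It was also the 1 member of 9 whose groups did not overlap, against 333 genes (2.27%). Nothing is read from these counts, because the same contrast chose the members.

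Each of the 4 CELF6 probe sets in the gene value had a higher knockdown mean, and none separated the groups alone. The filter acts on the mean over all 11 arrays, so their shared direction is partly set by it. Probe set 3632114 averaged 7.95 in knockdown arrays and 7.900 in controls, under the table median of 7.904, and entered only through its knockdown values. Probe set 3632123 averaged 8.13 ± 0.064 in knockdown arrays and 8.01 ± 0.082 in controls (SD, n = 6 and 5), and 3632111 averaged 8.15 ± 0.068 and 8.05 ± 0.071 in the same order of groups. Probe sets 3632114 and 3632143 differed by 0.054 and 0.017. The last of these is the dimmest that entered, at 0.018 above the table median, and 3632108 was the brightest left out, at 0.025 below it, with a difference of 0.0073.

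The dimmer CELF6 probe sets leaned the other way. Of the 20 that had an estimate and did not enter, 5 had a higher and 15 a lower knockdown mean, so that over all 24 the median difference was -0.031. Probe set 3632112, one of the 15, was the only CELF6 probe set to separate the groups by itself, and in the direction opposite to the gene value. Its level was 7.74, 7.83 and 7.79 under shRNA A and 7.82, 7.78 and 7.79 under shRNA B, against 7.90, 7.90 and 7.87 under the GFP shRNA and 7.88 and 7.89 under the empty vector. It lies below the table median, and 14 of the 24 CELF6 probe sets were below the array median on every array. With no filter on dim probe sets the CELF6 difference turned to -0.024.

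**Figure D2:**
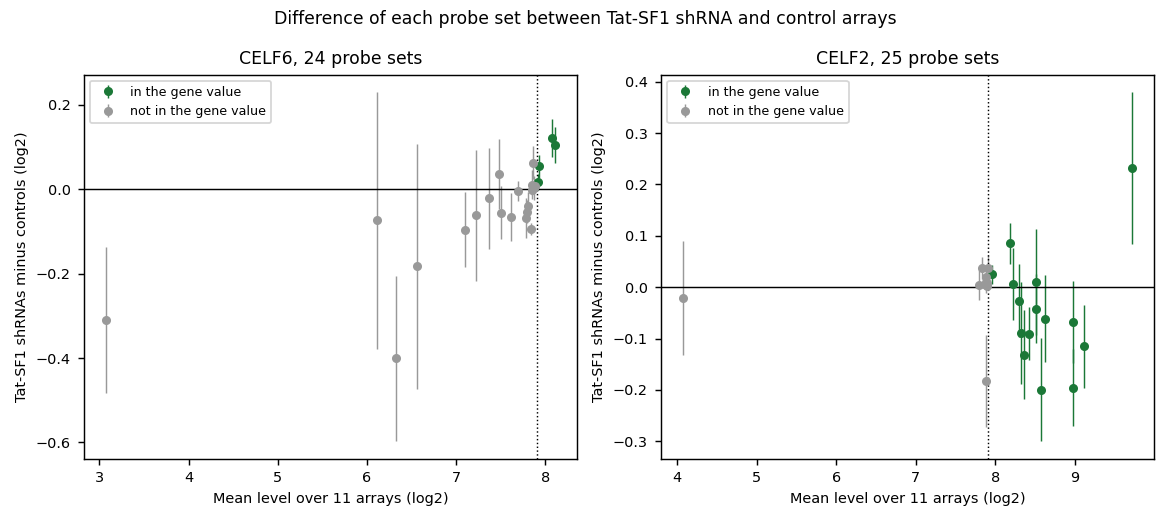
Difference in log2 level between 6 knockdown and 5 control arrays (vertical axis, bars are standard errors) against mean level over the 11 arrays (horizontal axis) for each probe set of CELF6 (left) and CELF2 (right); the dotted line is the table median of 7.90. The 4 CELF6 probe sets right of the line lie above 0 and 15 of the 20 left of it below 0, a split partly set by the filter since 3632114 passes the line only through its knockdown values; for CELF2, 10 of 15 right of the line and 2 of 10 left of it lie below 0.

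The call for CELF6, given as a description, rested on every array. Leaving out any 1 of the 11 arrays kept the difference between 0.070 and 0.085 and raised its adjusted p to between 0.053 and 0.12. The array names of 4 knockdown arrays (shRNA A replicate 3 and all of shRNA B) carry a suffix that no control carries, and on the arrays without it the difference was 0.074 with an adjusted p of 0.43.

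**Figure D3:**
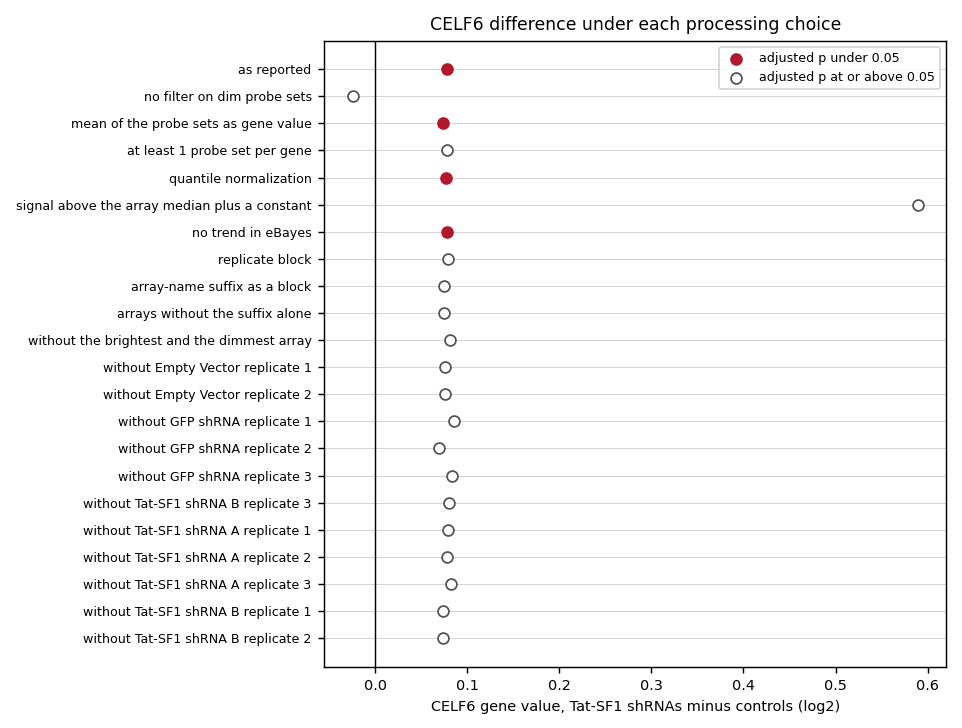
Difference in the CELF6 gene value between knockdown and control arrays (horizontal axis, log2) as reported and under 21 other processing choices (rows). Filled points have an adjusted p under 0.05 and open points do not; 3 of the 21 choices keep the call, and the choice without a filter on dim probe sets lies at -0.024.

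CELF1, which binds GU-rich elements and recruits deadenylation to short-lived messages, had gene values that overlapped throughout. The value was 9.09, 9.10 and 9.35 under shRNA A and 9.07, 9.27 and 9.26 under shRNA B, against 9.41, 9.14 and 9.16 under the GFP shRNA and 9.09 and 9.13 under the empty vector. Knockdown and control arrays spanned nearly the same range, and the highest single value belonged to GFP shRNA replicate 1. The means were 9.19 ± 0.12 in knockdown arrays (SD, n = 6) and 9.19 ± 0.13 in controls (SD, n = 5), with a difference of 0.0033 (95% interval -0.15 to 0.15).

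CELF2, the closest relative of CELF1 and a regulator of splicing in T cells and heart, had the most negative difference of the 9. Its gene value was 8.34, 8.50 and 8.50 under shRNA A and 8.36, 8.52 and 8.41 under shRNA B, against 8.61, 8.57 and 8.51 under the GFP shRNA and 8.52 and 8.50 under the empty vector. All but 1 of the knockdown arrays, shRNA B replicate 2, lay below all controls. For shRNA A replicate 3 the margin was slight, at 8.5004 against 8.5026 for empty vector replicate 2. The means were 8.44 ± 0.077 in knockdown arrays (SD, n = 6) and 8.54 ± 0.046 in controls (SD, n = 5), a difference of -0.11 (SE 0.045; 95% interval -0.20 to -0.0090), which did not pass over all genes. The sign stayed negative under all 22 alternatives, between -0.29 and -0.036, and the difference was called in none. Of the 15 CELF2 probe sets in the gene value, 5 were higher and 10 lower in knockdown arrays. Of the 10 that had an estimate and did not enter, 8 were higher and 2 lower, so that over all 25 there were 13 higher and 12 lower, with a median difference of 0.0032.

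The remaining CELF genes, which are best known as neuronal splicing regulators, stayed at the floor in all 4 constructs. CELF3 averaged 7.96 ± 0.044 in knockdown arrays and 7.94 ± 0.036 in controls (SD, n = 6 and 5), a difference of 0.022. CELF4 averaged 7.96 ± 0.035 in knockdown arrays and 7.96 ± 0.019 in controls, a difference of 0.00027. CELF5 averaged 7.99 ± 0.052 in knockdown arrays and 7.99 ± 0.026 in controls, a difference of 0.0030. Their groups overlapped, and the 95% intervals reached at most 0.064 above and 0.043 below 0. In CELF3, probe sets 2435150 and 2435174 entered only through their knockdown values and 2435152 only through its control values. In CELF4, 3804454 entered only through its control values, as did 3816909 in CELF5. These 3 differences are therefore partly set by the filter. At this brightness a change of the transcript would be compressed, so that intervals on this scale do not bound it.

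The MBNL genes overlapped between groups as well; in mice, loss of the first of them gives myotonia and splicing defects. MBNL1, the main family member in muscle, had 8.82, 8.72 and 8.67 under shRNA A and 8.63, 8.86 and 8.61 under shRNA B, against 8.61, 8.72 and 8.90 under the GFP shRNA and 8.74 and 8.65 under the empty vector. Both the lowest and the highest of the 11 values were GFP shRNA arrays. The MBNL1 difference was -0.0060 (SE 0.061; 95% interval -0.14 to 0.12).

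MBNL2, prominent in brain, averaged 8.54 ± 0.069 in knockdown arrays and 8.56 ± 0.061 in controls (SD, n = 6 and 5), a difference of -0.026 (95% interval -0.12 to 0.072). MBNL3 averaged 8.30 ± 0.043 in knockdown arrays and 8.33 ± 0.075 in controls, a difference of -0.028 (95% interval -0.12 to 0.060). With a floor 0.5 higher, which left 6 of its 17 probe sets, the MBNL3 difference was -0.15, outside that interval, and was not called (limma adjusted p = 0.0781). The 3 shRNA A arrays of MBNL3 lay close together, at 8.33, 8.32 and 8.31, inside the range of the controls. Over the 9 members 5 differences were above 0 and 4 below it. Their median was 0.00027, beside -0.016 for all genes, of which 67% were lower in knockdown arrays.

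**Figure D4:**
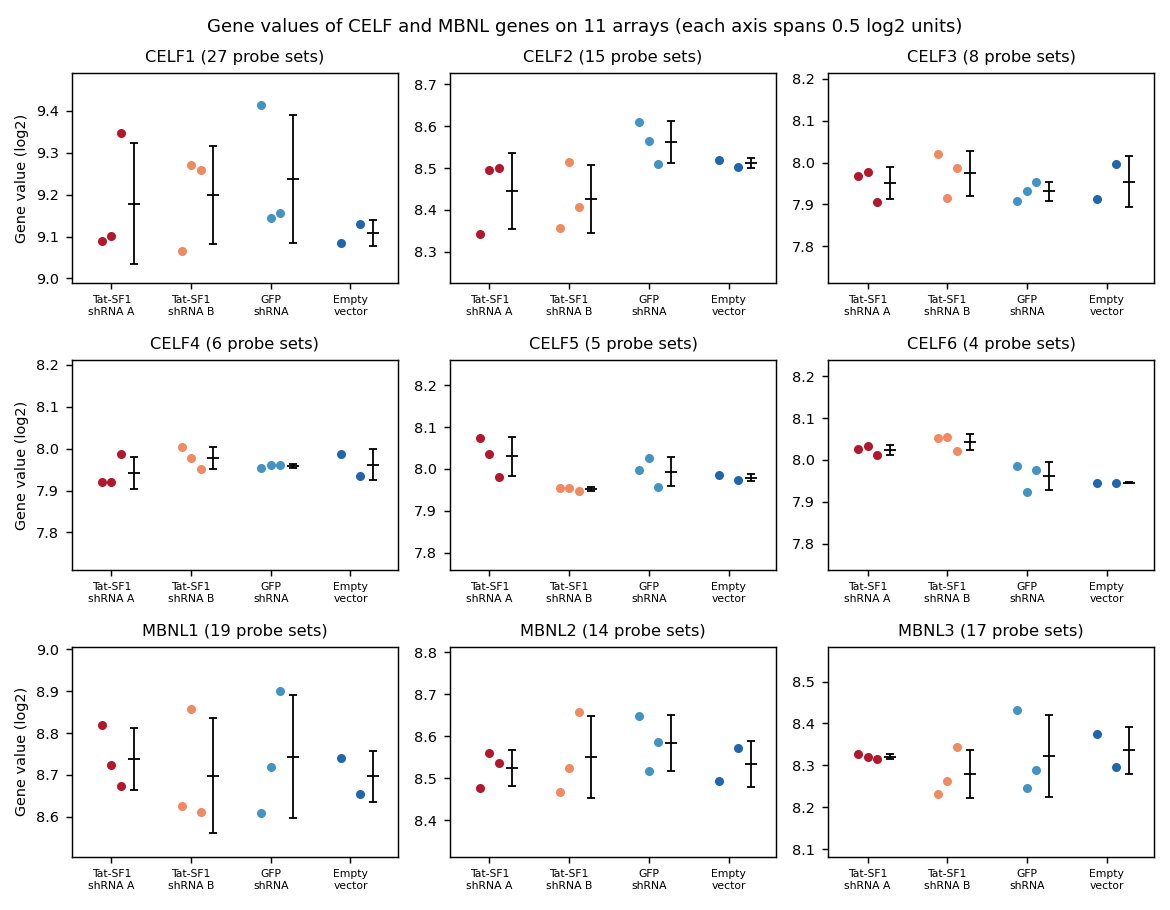
Gene value (log2, vertical axis) of each of the 9 genes on the 11 arrays, by construct; points are arrays, and bars are the mean and SD of a construct (n = 3, 3, 3 and 2). Each panel spans 0.5 log2 units; only in the CELF6 panel do all 6 knockdown points (means of 8.02 and 8.04) lie above all control points (means of 7.96 and 7.95).

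The differences of the 2 Tat-SF1 shRNAs from the controls are set side by side here, and they share the same 5 control arrays. CELF6 differed by 0.088 under shRNA B and by 0.068 under shRNA A. CELF2 differed by -0.12 under shRNA B and by -0.096 under shRNA A. The signs under shRNA B and shRNA A were opposite for 4 members, with CELF5 furthest apart at -0.036 under shRNA B and 0.042 under shRNA A. The others were MBNL1 (-0.026 and 0.014), CELF4 (0.018 and -0.017) and CELF1 (0.013 and -0.0069), in the same order of shRNAs.

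The direct comparison of shRNA B with shRNA A did not use the contrast that chose the members, and 0 of the 9 passed it in limma after Benjamini-Hochberg adjustment, as did 0 of 14662 genes (0%). At an unadjusted p under 0.05 it held 1 member, CELF5, and 669 genes (4.56%). CELF5 was 7.96, 7.95 and 7.95 under shRNA B and 8.07, 8.04 and 7.98 under shRNA A, so that the constructs did not overlap. The share of all genes that lie apart between these constructs was not counted. The CELF5 difference was -0.078 (SE 0.023; limma adjusted p = 0.999). It was -0.029 on the arrays with the name suffix alone, where shRNA A has 1 array, and -0.0079 with no filter on dim probe sets. The other 8 members differed by between -0.041 and 0.035, and their 95% intervals included 0.

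The 2 control constructs were compared in the same manner, and again 0 of the 9 members passed in limma, where 1 of 14662 genes did (0.00682%). At an unadjusted p under 0.05 the comparison held 0 members and 661 genes (4.51%). The largest member difference between the GFP shRNA and the empty vector was 0.13 for CELF1 (SE 0.11; limma adjusted p = 0.948), and it was 0.042 without GFP shRNA replicate 1, the array at 9.41. The order of the constructs changed from gene to gene. The GFP shRNA was highest for CELF1, CELF2, MBNL1 and MBNL2, shRNA B for CELF3, CELF4 and CELF6, shRNA A for CELF5 and the empty vector for MBNL3. Of the pairs of constructs compared directly, shRNA B with shRNA A and the GFP shRNA with the empty vector, only shRNA B and shRNA A in CELF5 had an unadjusted p under 0.05. Other neighbours in these orders were not compared.

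Exon usage within the members was read as the splicing index, which subtracts the gene value of an array from the log2 level of a probe set there. A difference in it means that parts of a gene changed unequally, without telling which part moved. None of the 115 member probe sets passed in the comparison of knockdown and control arrays, where 7 of 224219 did (0.00312%), nor between shRNA B and shRNA A (0 of 224219, 0%), nor between the control constructs (0 of 224219, 0%). At an unadjusted p under 0.05 in limma there were 9 member probe sets (7.83%) between knockdown and control arrays, beside 11.7% of all probe sets. There were 10 (8.70%) between the Tat-SF1 shRNAs, beside 5.51% of all, and 4 (3.48%) between the controls, beside 4.52%.

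Probe set 3372277 of CELF1 had the largest index difference of that gene between knockdown and control arrays. Its index was 0.95, 0.95 and 0.54 under shRNA A and 1.05, 0.85 and 0.81 under shRNA B, against 1.06, 1.07 and 1.23 under the GFP shRNA and 1.09 and 1.23 under the empty vector. All 6 knockdown arrays lay below all 5 controls, for the index and also for the level itself, which averaged 10.05 ± 0.086 in knockdown arrays and 10.32 ± 0.12 in controls (SD, n = 6 and 5). The index differed by -0.28 (SE 0.083), while the CELF1 gene value differed by 0.0033.

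MBNL3, which in cultured mouse muscle cells holds back differentiation, had its largest index difference at probe set 4022118. Its level was 8.40, 8.32 and 8.36 under shRNA A and 8.60, 8.35 and 8.43 under shRNA B, against 8.62, 8.73 and 8.64 under the GFP shRNA and 8.68 and 8.74 under the empty vector. Every knockdown array was below every control, by the least for shRNA B replicate 1. The index differed by -0.24 (SE 0.070), and on the index the same shRNA B array overlapped the controls.

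Of the 115 member probe sets in the gene values, 3 (2.61%) had levels that did not overlap between the groups, beside 1.84% of all probe sets in use. They were the CELF1 and MBNL3 probe sets above and 3804454 of CELF4, which lay at the floor with 7.90 in knockdown arrays and 7.93 in controls. All 3 were lower in knockdown arrays. For 3804454 this direction is partly set by the filter. Its knockdown mean of 7.90322 was under the table median of 7.90355, and it entered only through its control values. By the index, 4 of the 115 (3.48%) did not overlap, beside 1.44% of all probe sets in use, 2 of them lower and 2 higher in knockdown arrays. The 4 were 3372277 of CELF1, 3816910 of CELF5, 3497629 of MBNL2 and 3234950 of CELF2, and the contrast that chose the members is also the one behind these counts.

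CELF2 gave the index with the smallest p among the members in that comparison, which is given as a description. Probe set 3234950 had an index of -0.23, -0.28 and -0.17 under shRNA A and -0.14, -0.32 and -0.17 under shRNA B, against -0.43, -0.54 and -0.37 under the GFP shRNA and -0.37 and -0.33 under the empty vector. All knockdown arrays lay above all controls, by 0.013 at the closest pair of arrays. The index difference was 0.19 (SE 0.044). Probe set 3234851 of CELF2 had the largest difference of any member, 0.34 (SE 0.15), with overlapping groups.

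The largest index difference of CELF5 was -0.12, at probe set 3816910, and that of MBNL2 was 0.17, at 3497629. The groups lay apart by the index in both, while the levels of these probe sets overlapped. For MBNL1, CELF3, CELF4 and CELF6 the largest index difference was -0.21, 0.26, 0.045 and -0.061 in that order, with overlapping groups and no call. The CELF3 value came from probe set 2435174. The level of 2435174 averaged 8.10 ± 0.23 (SD) in knockdown arrays and 7.82 ± 0.42 (SD) in controls. Its control mean was under the table median of 7.90, so it entered only through its knockdown values. The direction of the CELF3 difference is therefore partly set by the filter.

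MBNL2 gave the index with the smallest p among the members between the 2 Tat-SF1 shRNAs. The index of probe set 3497646 was -0.55, -0.39 and -0.56 under shRNA B and -0.23, -0.25 and -0.27 under shRNA A, a difference of -0.25 (SE 0.070; limma adjusted p = 0.849). The same probe set gave the largest MBNL2 difference between the control constructs, where it was -0.35, -0.44 and -0.31 under the GFP shRNA and -0.19 and -0.18 under the empty vector (-0.18, SE 0.057; limma adjusted p = 1). The constructs did not overlap in either comparison, and neither passed over all probe sets. With 3 or 2 arrays per construct, the share of all probe sets that lie apart in this way was not counted. The largest index difference between shRNA B and shRNA A was -0.30 for probe set 3372259 of CELF1 (SE 0.10; limma adjusted p = 0.874).

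**Figure D5:**
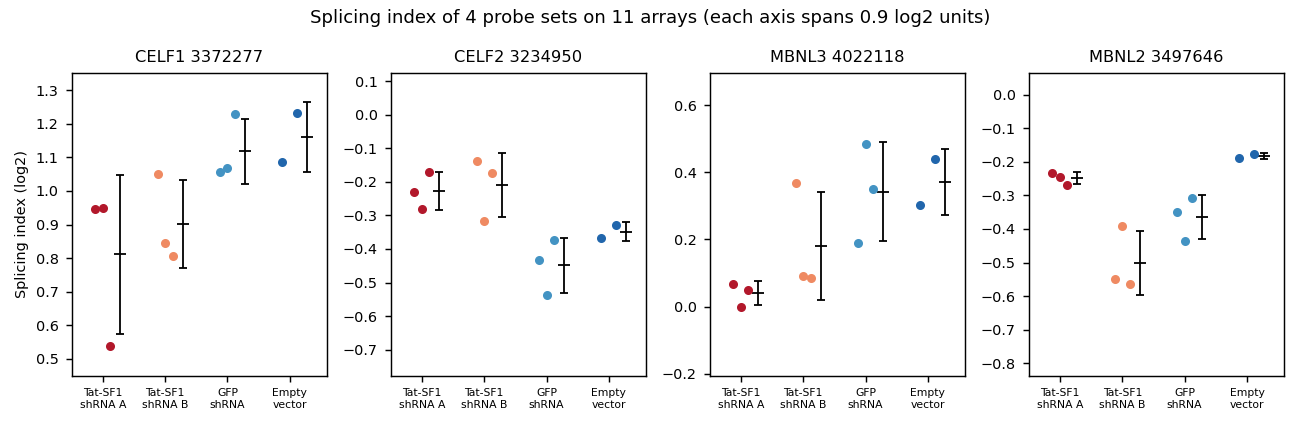
Splicing index (log2, vertical axis) of 4 member probe sets on the 11 arrays, by construct; points are arrays, and bars are the mean and SD of a construct (n = 3, 3, 3 and 2). In CELF1 3372277 all 6 knockdown points lie below the control points, in CELF2 3234950 above them, and in MBNL2 3497646 the shRNA B points (-0.56 to -0.39) lie below the shRNA A points (-0.27 to -0.23).

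Other regulators of the same splicing programmes did not pass in these arrays. Of 26 listed, among them the RBFOX, PTBP, NOVA, ELAVL, ESRP and KHDRBS families, 23 had a gene value, and 0 passed in any of the 3 comparisons. Over all genes 67% were lower in knockdown arrays than in controls, with a median of -0.016. Of the regulators 9 were higher and 14 lower, with a median of -0.016 as well. The largest differences were -0.22 for MSI1, a translational regulator of neural progenitors (SE 0.087, limma adjusted p = 0.237), and -0.18 for RBFOX2, which binds UGCAUG beside regulated exons (SE 0.064, limma adjusted p = 0.19).

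A list of transcripts linked to CELF or MBNL proteins, as targets or through disease repeats, was read for level and for exon usage. Of 20 listed, 19 had a gene value and 0 passed in any of the 3 comparisons. Over all genes 67% were lower in knockdown arrays, with a median of -0.016. Of the listed transcripts with a value, 6 were higher and 13 lower, with a median of -0.020. The largest differences were -0.27 for CNBP, whose intronic repeat causes the second type of myotonic dystrophy (SE 0.10, limma adjusted p = 0.216), and -0.16 for PKM, a glycolytic enzyme with mutually exclusive exons (SE 0.070, limma adjusted p = 0.297). Of the 384 probe sets of these transcripts, 0 passed by the splicing index, and 54 (14.1%) had an unadjusted p under 0.05 beside 11.7% of all probe sets. The share was 17.2% for the regulators above, and in the marker lists below it ran from 0% (blood cells) to 18.2% (HEK293 line). Several of the 54 belong to CNBP, whose lower gene value is subtracted in the index. For CNBP 2694655 the index differed by 0.24, with levels of 7.94 in knockdown arrays and 7.98 in controls. The largest index difference among the listed transcripts, named after its value was seen, was 0.70 (SE 0.31) for probe set 3822129 of NFIX. NFIX is a transcription factor with an MBNL-regulated exon. The level of 3822129 averaged 8.27 ± 0.63 (SD) in knockdown arrays and 7.66 ± 0.58 (SD) in controls. Its control mean was under the table median of 7.90, so it entered only through its knockdown values. The direction of this difference is therefore partly set by the filter.

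The genes most like a member over the 11 arrays were named by Pearson's r of the gene values, as a description across arrays that share constructs and brightness. CELF1 was followed most closely by YY1, a zinc finger transcription factor (r = 0.950), GART, an enzyme of purine synthesis (0.946), PTPMT1, a mitochondrial phosphatase (0.929), RAB3IP (0.928) and SECISBP2 (0.921). PTPMT1 is also its neighbour: the start windows that RefSeq gives for the pair, each 300 bases long with the first bases of the gene included, overlap by 159 bases on opposite strands, and part of the CELF1 sequence printed above lies in that overlap. It was the 1 of 20 genes named by this measure whose start window overlapped that of its member. The 20 were the best 5 for each of CELF1, CELF6, MBNL1 and MBNL2.

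CELF6 was followed by TRIML2 (r = 0.917), ZNF818P (0.911), PIGR, which carries antibodies across epithelia (0.896), CHST2 (0.892) and COL7A1, the anchoring fibril collagen (0.887). All 5 were dim, with control means between 7.94 and 8.10, and all 5 had higher knockdown means, by 0.086 to 0.17. That direction was set by the choice, because all knockdown arrays lay above all controls in CELF6. It is no separate result. MBNL1 was followed by FAIM (0.944), RWDD1 (0.937), RIPK1 (0.932), NCEH1 (0.912) and KMT2E (0.902), and MBNL2 by VASH2 (0.930), UBQLN2 (0.904), PAQR4 (0.904), GLOD4 (0.885) and XRCC6 (0.883). Among the 36 pairs of members the highest r was 0.628 for CELF1 and MBNL2, and the lowest was -0.692 for CELF2 and CELF3.

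The labels were checked on HTATSF1, whose gene value was 8.29, 8.21 and 8.22 under shRNA A and 8.11, 8.19 and 8.21 under shRNA B, against 8.53, 8.63 and 8.49 under the GFP shRNA and 8.54 and 8.32 under the empty vector. The 3000 brightest genes of each array averaged 9.25 ± 0.045 in knockdown arrays (SD, n = 6) and 9.32 ± 0.041 in controls (SD, n = 5), and the part of this brightness in the member values was not tested. For shRNA B the array-name suffix and the construct cannot be told apart. Of 7 markers of the HEK293 line, VIM, KRT8, KRT18 and NEFL were bright while NEFM, EYA1 and PAX2 lay near the floor, with a list mean of 8.81 to 8.94 in knockdown arrays and 8.86 to 9.10 in controls. Measured markers averaged 8.01 to 8.07 in knockdown arrays and 8.03 to 8.10 in controls for neurons (5 of 7), 8.06 to 8.17 and 8.01 to 8.12 for muscle (3 of 7), 7.90 to 7.93 and 7.92 to 7.94 for blood cells (2 of 6), and 7.94 to 7.99 and 7.96 to 7.98 for fibroblasts (5 of 5), in the same order of groups. None of these markers passed in any comparison.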

How the data were processed

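The authors deposited one table of log2 values, with a row per exon probe set and a column per array. How it was made (software, background, normalization, build) is not given in the sources used here. A placeholder marked missing estimates, 13190 to 15431 per array. Probe sets were tied to genes by a table of symbols for this array, of which 355799 carried 1 symbol, 15195 carried several and were not used, and 1028028 were not listed. Symbols were updated through RefSeq synonyms.

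Probe sets with an estimate on all arrays and a mean at or above the table median entered gene values (the median per array) for genes with at least 4, which left 224219 probe sets and 14662 genes. Differences were tested with limma 3.58.1 (lmFit, eBayes with a trend) in R 4.3.3 with version 1.17.8 of data.table, with Benjamini-Hochberg adjustment over all genes or probe sets, threshold 0.05. The pooled comparison had 2 levels, the comparison of the Tat-SF1 shRNAs 3 and that of the controls 4, each over all 11 arrays. P-values set a difference against the spread of arrays around the mean of their level. In the pooled comparison that spread includes differences between the constructs of a level. In the comparison of the Tat-SF1 shRNAs it includes the difference between the control constructs. The labels call the replicates biological, and the number of arrays limits the precision. The code was tested on simulated data.

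The members and lists were chosen with earlier results of these data known. The rule for naming took all 9 members, the probe set of each with the largest index difference per comparison, the 5 genes most like CELF1, CELF6, MBNL1 and MBNL2, and the 2 list members with the largest difference where none passed. Probe sets of CELF6, those whose groups did not overlap, 3234950 of CELF2 and 3822129 of NFIX were named after their values were seen. Alternatives were other filters, gene summaries, normalizations and scales, blocks, and each array left out.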

Additional observations from a re-analysis of the deposited data

Results flagged for a closer look

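CELF1 was 9.41 on GFP shRNA replicate 1, above the other 4 control arrays, which lay between 9.09 and 9.16. The gap to the nearest of them was 0.784 of the whole range of the controls, over the critical value of 0.71 for 5 samples. It was the 1 of 18 groups of member gene values singled out in this way, and chance singles out about 1 group in 20. The same array was the brightest of the 11, with 9.38 for its 3000 brightest genes.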

How the results depend on the processing

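Between the Tat-SF1 shRNAs and the controls, 33 genes and 1 member (CELF6) were called. With no filter on dim probe sets there were 19 genes and 0 members, and the CELF6 difference turned to -0.024. A floor 0.5 higher gave 252 genes and 0 members (CELF3 to CELF6 then have no value), the mean of the probe sets 129 genes, no trend 91, and at least 1 probe set per gene 1 gene and 0 members. Signal above the array median plus a constant gave 0 members. The array-name suffix as a block, the arrays without it alone, and leaving out the brightest and the dimmest array (chosen after seeing the data) each gave 0 genes and 0 members. Leaving out 1 array gave between 0 genes (without GFP shRNA replicate 3) and 45 (without empty vector replicate 2), and 0 members in all 11 cases.

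Whether replicate numbers pair the arrays was not settled: over 15 same-number pairs the correlation of deviations lay between -0.15 and 0.27, with 5 over 0.1. Pairs with unlike numbers are not given for comparison. With the replicate number as a block, 6 genes and 0 members were called against controls, and 0 genes between the control constructs. Between shRNA B and shRNA A the 0 genes became 1 with at least 1 probe set, 6 on the arrays with the suffix alone (shRNA A then has 1 array, assumed to vary like those of shRNA B), and between 0 and 1 with an array left out (1 without shRNA A replicate 2 or replicate 3). Between the controls the 1 gene became 0 with no filter, the higher floor, at least 1 probe set, the signal scale, no trend, or without the brightest and dimmest arrays, and between 0 and 2 with an array left out. No member was called in either comparison under any alternative run, and no member probe set by the splicing index in any of the 3 comparisons; the alternatives that leave a construct with 1 array say little about this. Levels near the floor limit CELF3 to CELF6. The causes of these shifts were not tested.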

Other observations

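Probe set 3804459 of CELF4 lay far below the array median on all arrays and did not enter the gene value. Its level was 6.08, 5.98 and 5.66 under shRNA A and 6.10, 5.98 and 5.21 under shRNA B, against 4.23, 1.56 and 3.03 under the GFP shRNA and 1.64 and 6.89 under the empty vector. The 6 knockdown arrays lay within 1 log2 unit of each other and above 4 of the 5 controls, and the highest value of all was empty vector replicate 2. The means were 5.84 ± 0.34 in knockdown arrays (SD, n = 6) and 3.47 ± 2.21 in controls (SD, n = 5). It was picked after its values were seen.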
